A study of Mus musculus with 4 samples.

Results

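The genes described here encode 8 membrane proteins that move sodium, calcium, chloride or phosphate: the sodium-calcium exchanger Slc8a1, the cation-chloride cotransporters Slc12a2 and Slc12a4, the sodium-phosphate cotransporter Slc20a1, the calcium pumps of the endoplasmic reticulum Atp2a2 and Atp2a3, and the calcium pumps of the plasma membrane Atp2b1 and Atp2b4. They were taken by symbol as rows found in both deposited expression tables, and they are 8 of the 18220 genes found in either table and of the 16121 found in both. All 8 passed the filter on low values in malignant cells, in all non-malignant cells together and in macrophages, while 5 to 7 of the 8 passed in the smaller host types.

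The study profiled single cells from hind limb sarcomas of mice given vehicle or digoxin, a cardiac glycoside that inhibits the sodium pump. Tumors of both groups were allografts labelled with the 129/SvJae background and with the same genotype, a Cre-activated oncogene allele together with Trp53 flox/flox. Vehicle mice received PBS, digoxin mice received 2 mg/kg digoxin from a DMSO stock diluted in PBS, and both were injected intraperitoneally every 24 h until the fourth dose. Each group held 2 mice, with no DMSO named for the vehicle, and tumors were dissociated with enzymes for 45 min at 37 °C before droplet libraries that count the 3′ ends of RNA molecules were made. The promoter that drove Cre, the number of tumor lines and the genotype of the hosts are not given in the sources used here.

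Sodium pumped out of the cell at the cost of ATP forms a gradient that other transporters spend. Slc8a1 uses it to expel calcium, Slc12a2 and Slc20a1 use it to bring in chloride and phosphate, and Slc12a4 runs on the outward potassium gradient that the same pump builds. The Atp2a pumps (SERCA) return calcium from the cytosol to the endoplasmic reticulum, and the Atp2b pumps (PMCA) expel it across the plasma membrane, both driven by ATP directly. In the heart, inhibition of the sodium pump by digoxin slows calcium exit through Slc8a1, which is the textbook basis of its effect on contraction.

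Malignant tables held 4507 and 6269 cells in vehicle mice 1 and 2 and 4211 and 3976 cells in digoxin mice 1 and 2, at a median of 46799 to 57658 UMIs (unique molecular identifiers, 1 for each RNA molecule counted) per cell, and non-malignant tables held 3014 to 3344 cells a mouse at a median of 15837 to 16671. Of 31498 cell barcodes, 113 occurred in more than 1 library. Trp53 was at a mean of 6.56 to 7.71 CPM per mouse in malignant cells and 63.8 to 75.5 in host cells. Host cells of vehicle mouse 2 stood apart, with Xist at 6.09 CPM against 722 to 817 in the other mice. Ddx3y, a Y-linked gene, was at 86.0 there against 1.72 to 2.14. This is the pattern of a male host and that of the other mice is female, so host sex was not balanced between the groups. The part of host sex in the host differences was not tested. Host-type differences with an unadjusted limma p under 0.05, or above 1 on the log2 scale, are also given without vehicle mouse 2. The deposited type names were checked against marker genes, and cells of 2 names were low in the markers of their name. Cells named Epithelial had the endothelial genes Cdh5 at 888 and Pecam1 at 841 CPM and the epithelial gene Epcam at 0.122. Cells named Microglia had Siglech at 2449 and Bst2 at 3011 CPM, genes listed here for plasmacytoid dendritic cells, and the microglial gene Tmem119 at 1.43. The 3 microglial markers found summed to 56.9 to 99.8 CPM a mouse in them, against 234 to 397 in macrophages. Both names are kept here only as the deposited labels.

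Levels are given as mean CPM, which is the share of a gene in the UMIs of a cell on the usual CPM scale, averaged over the cells of one type in one mouse. One molecule gives 1 UMI whatever its length, so levels of different genes can be set side by side without a correction for length. Each pair of values gives replicate 1 first and replicate 2 next. Levels were described in malignant cells and in the 7 host types with at least 20 cells in every mouse. The 4 rarer labels B cell, Dendritic, Neutrophil and Unknown had up to 34 cells a mouse and were not tested, and orders of levels below are among the 8 larger populations unless a rarer one is named.

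Promoter sequences were found for 6 of the 8 members in the RefSeq table of build GRCm38.p6, none being listed for Slc12a2 and Atp2a2. Printed here, 5′ to 3′ on the strand of the gene and from 250 bases before to 50 after the listed start, are those of the 4 members on which the comparisons of digoxin with vehicle and of cell types turn: Slc20a1 (chr2:129198523-129198822, plus strand), Atp2b1 (chr10:98914392-98914691, plus strand), Atp2a3 (chr11:72960919-72961218, plus strand) and Atp2b4 (chr1:133753698-133753997, minus strand). The Slc20a1, Atp2b1 and Atp2a3 windows hold the 5′ end that GENCODE gives the gene. For Atp2b1 that end, at chr10:98914406, lies near the upstream edge, so most of its window is inside the gene. The Atp2b4 window lies wholly inside the gene, which GENCODE places at chr1:133699457-133801041, so it stands for an internal start. Capitals mark matches, on either strand and with overlaps allowed, to the GC box GGGCGG, the CCAAT box, the TATA box TATAAA, the palindromic E-box CACGTG or the ETS core GGAAGT.
Slc20a1: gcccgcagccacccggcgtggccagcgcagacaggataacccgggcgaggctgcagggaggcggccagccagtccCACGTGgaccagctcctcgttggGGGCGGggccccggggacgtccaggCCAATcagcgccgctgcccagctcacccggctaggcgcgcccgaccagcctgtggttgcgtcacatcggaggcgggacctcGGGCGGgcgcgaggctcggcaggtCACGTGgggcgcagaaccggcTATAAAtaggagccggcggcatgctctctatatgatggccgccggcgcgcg
Atp2b1: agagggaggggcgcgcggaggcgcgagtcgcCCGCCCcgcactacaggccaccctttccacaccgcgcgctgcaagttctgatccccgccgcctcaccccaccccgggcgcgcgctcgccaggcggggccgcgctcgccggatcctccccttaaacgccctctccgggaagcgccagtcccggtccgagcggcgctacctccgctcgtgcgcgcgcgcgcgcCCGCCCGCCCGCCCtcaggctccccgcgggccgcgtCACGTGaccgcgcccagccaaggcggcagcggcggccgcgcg
Atp2a3: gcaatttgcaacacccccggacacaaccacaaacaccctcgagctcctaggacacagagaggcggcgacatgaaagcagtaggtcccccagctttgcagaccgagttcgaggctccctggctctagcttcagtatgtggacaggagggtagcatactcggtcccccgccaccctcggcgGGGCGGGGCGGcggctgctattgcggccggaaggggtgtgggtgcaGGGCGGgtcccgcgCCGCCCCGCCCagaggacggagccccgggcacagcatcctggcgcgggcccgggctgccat
Atp2b4: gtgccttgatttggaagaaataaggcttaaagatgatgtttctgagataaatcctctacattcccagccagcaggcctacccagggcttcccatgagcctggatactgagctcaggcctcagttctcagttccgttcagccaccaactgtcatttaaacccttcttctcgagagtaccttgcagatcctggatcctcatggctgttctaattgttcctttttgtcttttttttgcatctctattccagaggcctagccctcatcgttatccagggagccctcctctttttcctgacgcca

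Of the 4 windows, 3 were GC-rich and 1 was not. Atp2b1 was 79.3% GC with 54 CG dinucleotides, Slc20a1 73.0% with 36 and Atp2a3 68.3% with 25, against a median of 52.7% GC over all 32851 promoters of the table. Atp2b4 was 47.7% GC with 4 CG dinucleotides and held none of the 5 motifs. The GC box was matched 4 times in Atp2b1, 2 times in Slc20a1 and 5 times in Atp2a3, and it was present in 35.7% of all promoters. The E-box CACGTG was matched 2 times in Slc20a1 and 1 time in Atp2b1, beside 7.15% of all promoters. Slc20a1 also held 1 CCAAT and 1 TATAAA, present in 37.4% and 13.6% of all promoters, and the ETS core, in 23.8% of all, was matched in none of the 4. Matches describe these letters only, and Atp2b1 and Slc20a1 each have a further start in the table that was not used here.

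**Figure D1:**
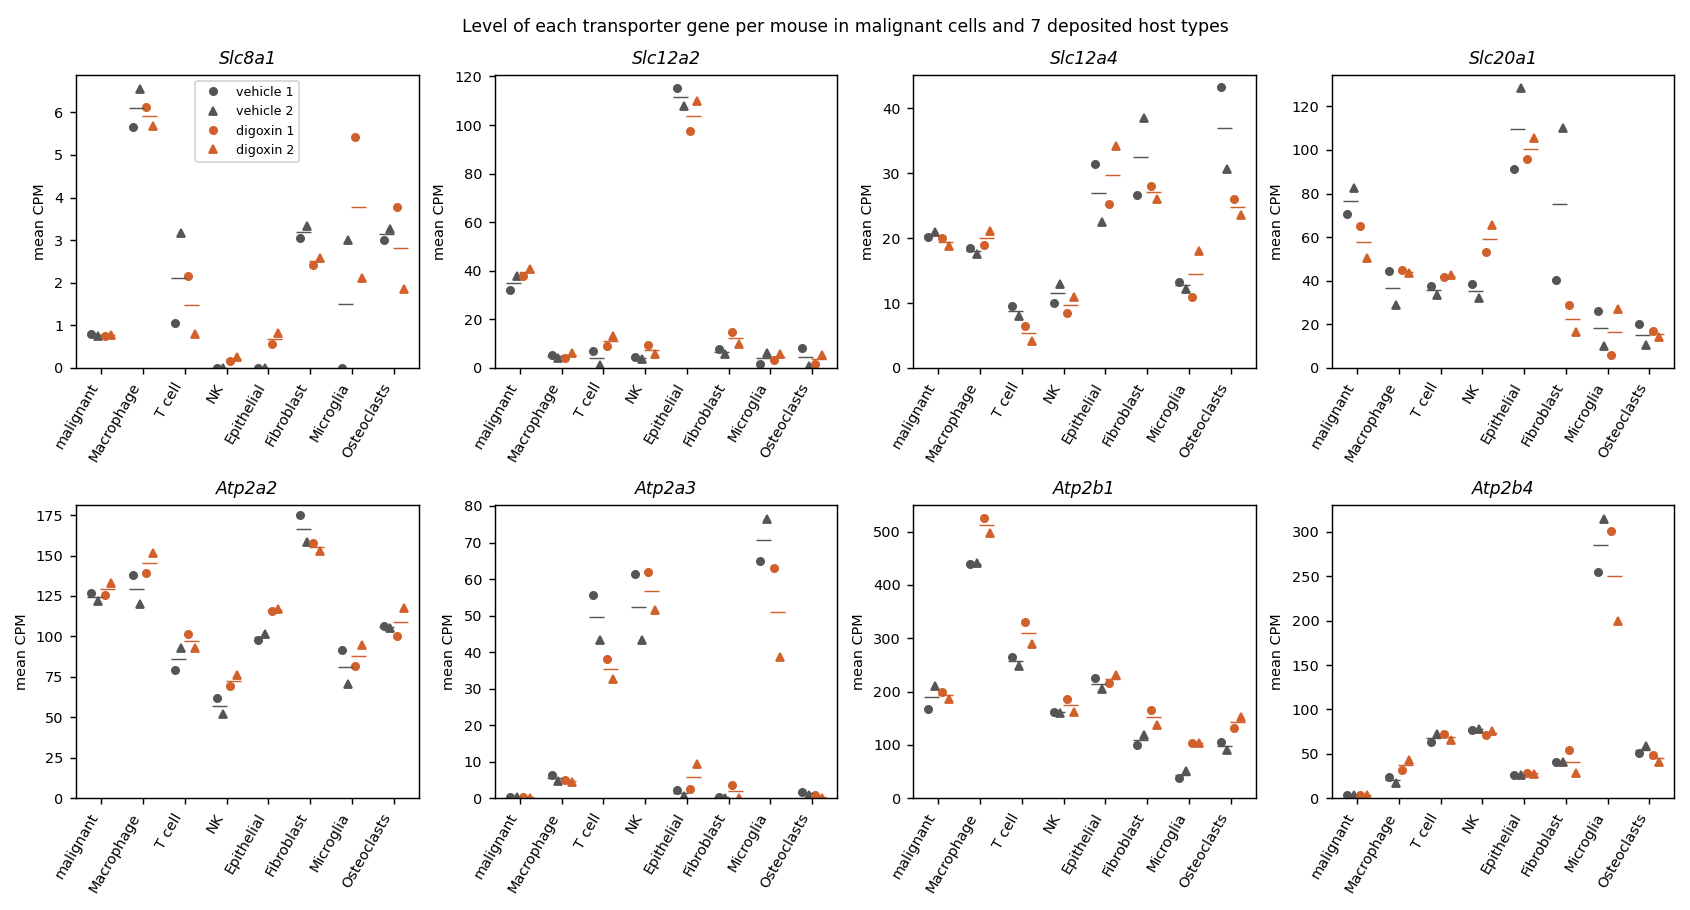
Mean CPM (vertical axis, linear, a scale for each gene) of the 8 transporter genes in malignant cells and 7 deposited host types, with 1 point for each of 4 mice and a short line at each group's mean. The Atp2b1 points are highest in macrophages at 439.7 to 526 CPM, and the Atp2b4 and Slc12a2 points stand apart in the cells named Microglia and Epithelial.

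The exchanger gene Slc8a1 was scarce and, among the 8 larger populations, highest in macrophages. Its macrophage level was 5.66 and 6.56 CPM with vehicle against 6.13 and 5.68 with digoxin, 2.02-fold above the next type, Osteoclasts, at 1.86 to 3.79. Vehicle and digoxin values overlapped in macrophages, with means of 6.11 ± 0.636 (SD, n = 2) CPM for vehicle against 5.91 ± 0.314 (SD, n = 2) for digoxin. In malignant cells it was at 0.802 and 0.754 CPM with vehicle against 0.756 and 0.773 with digoxin, and the groups overlapped. Fibroblasts, Microglia and T cells lay between at 2.42 to 3.33, 0 to 5.43 and 0.807 to 3.16, with ranges that overlapped each other and that of Osteoclasts. NK and Epithelial cells had no Slc8a1 UMI in either vehicle mouse and at most 0.810 CPM in any mouse. Macrophage markers were present outside macrophages as well, with C1qa at 1.98% to 3.23% of its macrophage level in malignant cells, 0.384% to 2.79% in Fibroblasts, 3.43% to 9.99% in T cells, 1.94% to 3.86% in NK cells and 2.22% to 4.79% in Epithelial cells. The part of free macrophage RNA in the Slc8a1 levels of these 5 populations was not tested.

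The cotransporter gene Slc12a2, which loads cells with chloride together with sodium and potassium, was highest in the Epithelial cells that carried endothelial markers. There it was at 115 and 108 CPM with vehicle against 97.5 and 109.9 with digoxin, and in malignant cells at 32.1 and 38.0 CPM with vehicle against 38.1 and 40.9 with digoxin, so that Epithelial cells held 2.89-fold the malignant level with no overlap of the mice. The other 6 host types lay at or below 14.7 CPM in every mouse, with ranges that overlapped from each neighbour to the next. Slc12a4, a potassium-chloride cotransporter that lets chloride out, was more even. Osteoclasts, Fibroblasts and Epithelial cells led with 23.6 to 43.3, 26.1 to 38.5 and 22.5 to 34.2, which overlapped. Malignant cells and macrophages followed at 18.8 to 20.9 and 17.6 to 21.0, and T cells were lowest at 4.22 to 9.55. The pair was weighted in opposite ways: Slc12a4 made up 31.5% to 38.6% of the summed CPM of both genes in malignant cells and 17.3% to 23.7% in Epithelial cells, but 77.3% to 82.1% in macrophages and 81.0% to 97.3% in Osteoclasts.

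Slc20a1, which imports phosphate with sodium and also serves as a receptor for some retroviruses, was again highest in Epithelial cells at 91.1 and 128 CPM with vehicle against 95.7 and 105 with digoxin. Malignant cells came next at 70.7 and 82.5 CPM with vehicle against 65.1 and 50.4 with digoxin, below every Epithelial value. Fibroblasts, NK cells, macrophages and T cells had means of 48.9, 47.4, 40.5 and 38.9 CPM over the 4 mice with overlapping ranges, of which that of Fibroblasts, 16.6 to 109.9, also reached past the malignant values. Microglia and Osteoclasts had the lowest means, 17.3 and 15.5. Over the 8 populations the log2 levels of Slc20a1 and Slc12a2 ran together with Pearson's r of 0.852, given as a description of 8 points that share the same 4 libraries.

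Of the 2 SERCA genes, Atp2a2 was the broad one. It ranged only 2.48-fold between the highest population, Fibroblasts at 153 to 175, and the lowest, NK cells at 52.4 to 76.1, the smallest ratio among the 8 members. Macrophages and malignant cells lay between with 120.3 to 151 and 122 to 133, which overlapped. Atp2a3, the SERCA known from blood cells and platelets, ranged 229-fold. It was highest in Microglia, NK and T cells at 65.0 and 76.5 CPM with vehicle against 62.9 and 38.8 with digoxin for Microglia, 43.2 to 61.9 for NK cells and 32.7 to 55.7 for T cells, 3 ranges that overlapped. Macrophages held 4.44 to 6.27 and malignant cells 0.198 to 0.344, the latter from 93 and 71 UMIs with vehicle and 64 and 46 with digoxin. Atp2a3 contributed 40.4% to 49.9% of the SERCA pair in NK cells, 26.0% to 41.2% in T cells, 29.1% to 52.0% in Microglia, 2.85% to 4.34% in macrophages and 0.148% to 0.271% in malignant cells. The few B cells had Atp2a3 at 24.1 to 127 CPM from 38 UMIs over 4 to 18 cells a mouse.

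Atp2b1, the PMCA found in most tissues, had the highest level of the 8 members in every mouse in malignant cells, macrophages, T cells, NK cells and Epithelial cells. Microglia held more Atp2b4 in every mouse. In Osteoclasts Atp2a2 was above Atp2b1 in both vehicle mice, at 106 and 105 CPM with vehicle against 100.3 and 118 with digoxin for Atp2a2, and below it in both digoxin mice, while in Fibroblasts Atp2a2 was above Atp2b1 in every mouse but digoxin mouse 1. Atp2b1 was highest in macrophages at 439.7 and 441 CPM with vehicle against 526 and 498 with digoxin, above the other 7 large populations in every mouse. The rare Neutrophil cells, 5 to 34 a mouse, held 558 and 366 CPM with vehicle against 416 and 708 with digoxin, above the macrophages of vehicle mouse 1 and digoxin mouse 2 and below those of the other 2 mice. T cells followed at 248 to 331, then Epithelial cells at 204 to 231 and malignant cells at 168 to 211, the last 2 overlapping. Microglia had the lowest mean, at 37.8 and 50.4 CPM with vehicle against 104 and 104 with digoxin. Atp2b4 ran the other way in Microglia, with 255 and 315 CPM with vehicle against 300.5 and 199 with digoxin, 3.54-fold above NK cells at 71.1 to 78.4. Malignant cells were lowest for Atp2b4 at 3.50 to 3.70, and all 7 host types lay above them in every mouse. The Atp2b4 share of the PMCA pair was 65.7% to 87.1% in Microglia, 27.5% to 32.8% in NK cells, 17.9% to 22.6% in T cells, 3.75% to 7.95% in macrophages and 1.63% to 2.16% in malignant cells.

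**Figure D2:**
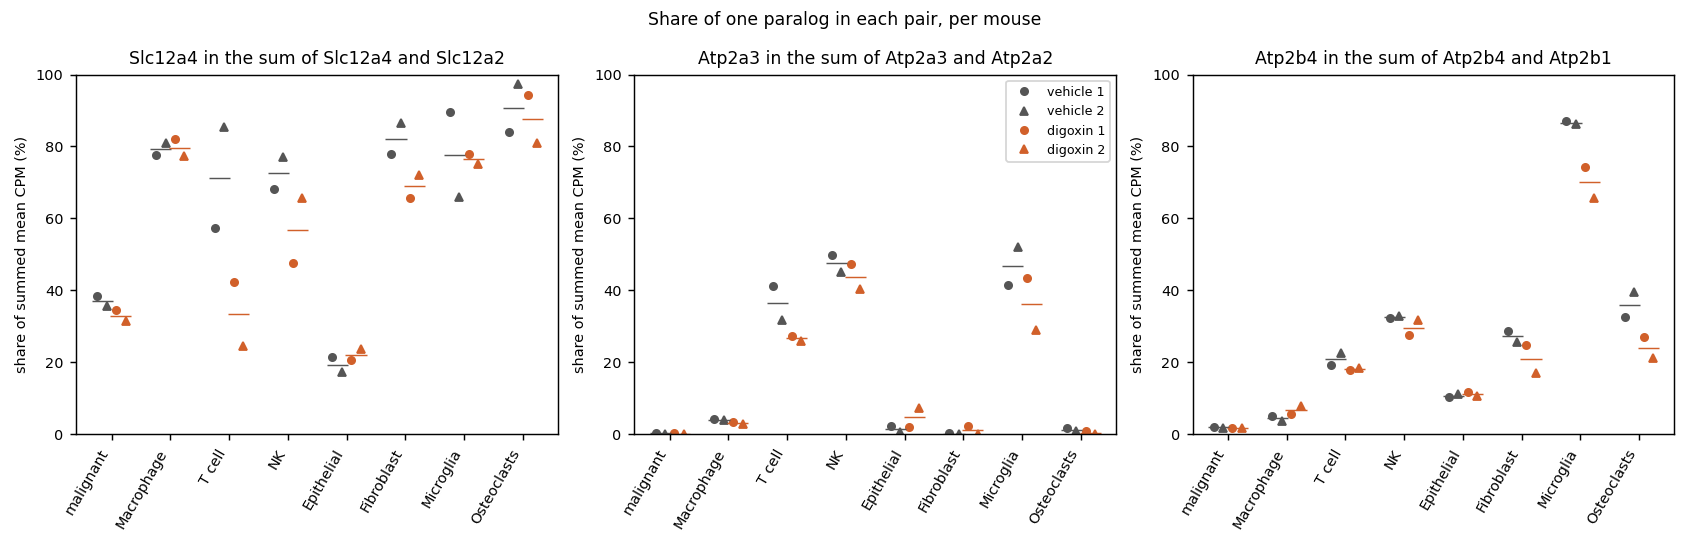
Share in percent of Slc12a4, Atp2a3 and Atp2b4 in the summed mean CPM of each pair of paralogs (vertical axes from 0 to 100), by population, with 1 point for each mouse. In malignant cells Atp2a3 is at 0.148% to 0.271% and Atp2b4 at 1.63% to 2.16%, while lymphoid cells and Microglia hold both at higher shares.

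Within macrophages, the sub-clusters deposited as M1, M2 and Highly proliferative M2 differed in Atp2b4. M1 cells held 40.1 and 35.1 CPM with vehicle against 54.8 and 74.7 with digoxin, M2 cells 9.20 and 8.85 CPM with vehicle against 9.85 and 18.1 with digoxin, and Highly proliferative M2 cells 13.3 and 16.4 CPM with vehicle against 17.4 and 24.1 with digoxin. The level in M1 was 3.97 to 5.56 times that in M2 within each mouse. Atp2a3 had a ratio of 2.04 to 4.09. Atp2b1 was at 1.09 to 1.27, and Atp2a2 lay the other way at 0.712 to 0.798, lower in M1 in every mouse. The ratio of Atp2b4 was above that of Atp2a3 in 3 of the 4 mice, and in vehicle mouse 2 it was below. The sub-clusters came from expression in the same cells, so these ratios are a description with no test.

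Genes whose profile was most like each member were ranked over the 8 populations among 9104 genes with at least 20 CPM in one of them, by Pearson's r of the log2 levels. For Slc8a1 these were Ifi207 (r = 0.943), Cebpa and Igsf8, and for Slc12a2 Hspa12b (r = 0.990), Cdh13 and Mecom. Slc12a4 came closest to Aig1 (r = 0.976), Cspg4 and Ube2g2, and Slc20a1 to Pimreg (r = 0.974), Ube2v2 and Myl12a. Among the pumps, Atp2a2 was nearest to Sh3pxd2b (r = 0.978), Nupr1 and Itgb5, Atp2a3 to Fcho1 (r = 0.994), Rpia and Acap1, Atp2b1 to Rap1gds1 (r = 0.977), Bcl2l1 and Spryd7 and Atp2b4 to Rnaset2a (r = 0.970), Txndc11 and Hes6. Between members, Atp2a3 and Atp2b4 had r of 0.743, Atp2a2 and Atp2a3 −0.813, and Slc12a4 and Atp2a3 −0.857.

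Digoxin was then compared with vehicle. In malignant cells Slc20a1 was lower and Slc12a2 slightly higher in both digoxin mice, and the 5 calcium genes overlapped between the groups. limma called none of the members in any population at an adjusted p under 0.05, and differences are given as log2(mean CPM + 1) in digoxin minus vehicle. In malignant cells limma called 0 of 8 members and 0.0% of 17138 genes, and 1 member had an unadjusted p under 0.05, beside 3.41% of all genes. That member was Slc20a1, with 76.6 ± 8.36 (SD, n = 2) CPM for vehicle against 57.8 ± 10.4 (SD, n = 2) for digoxin, and both digoxin mice were below both vehicle mice. Its difference was −0.41 (SE 0.14, limma p 0.0327, adjusted p 1.00), and it was −0.23 without digoxin mouse 2. In malignant cells, 1 of 8 members tested was higher in both digoxin mice, beside 12.8% of all genes tested, and 2 were lower, beside 16.5%. The higher one was Slc12a2, at 35.0 ± 4.15 (SD, n = 2) CPM for vehicle against 39.5 ± 1.98 (SD, n = 2) for digoxin, and the other lower one was Slc12a4, at 20.5 ± 0.545 (SD, n = 2) CPM for vehicle against 19.4 ± 0.818 (SD, n = 2) for digoxin, with differences of 0.17 and −0.08 that were within 2 standard errors of 0. The Slc12a2 difference was 0.05 without vehicle mouse 1, and that of Slc12a4 was −0.04 without digoxin mouse 2. Atp2a2, Atp2b1 and Atp2b4 overlapped between groups, with differences of 0.05, 0.04 and −0.01 and standard errors of 0.07, 0.12 and 0.10. At least 3 of the 7 macrophage markers were found in 31.6% and 28.3% of the cells with vehicle and 31.7% and 37.0% with digoxin, and without those cells the Slc20a1 difference was −0.39. The 7 markers summed to 299.7 and 274 CPM with vehicle against 219 and 218 with digoxin among malignant cells, 5 of 7 being lower in both digoxin mice and none at 0, and their part in the other differences was not tested. The fibroblast list summed to 3927 and 4178 CPM with vehicle against 3335 and 2819 with digoxin, with 3 of 5 lower in both digoxin mice and the mice in the same order as for Slc20a1, and the neutrophil list to 11.5 and 11.7 CPM with vehicle against 31.6 and 19.5 with digoxin, with 4 of 5 higher. The osteoclast list summed to 112 and 155 CPM with vehicle against 106 and 93.1 with digoxin. The plasmacytoid dendritic list summed to 873 and 922 CPM with vehicle against 850.1 and 796 with digoxin. Both sums were lower in both digoxin mice, with the mice again in the order of Slc20a1. Of the single markers, 1 of 5 and 0 of 4 were lower in both digoxin mice. The sums of the dendritic and endothelial lists, at most 38.7 CPM, were higher in both. None of these markers was at 0. The median mitochondrial share of UMIs was 5.80% and 5.93% with vehicle and 5.58% and 5.19% with digoxin, also in the order of Slc20a1. The share of cells marked as doublets was 8.50% and 7.37% with vehicle and 5.49% and 5.56% with digoxin. Both shares were lower in both digoxin mice, and the part of all these was not tested.

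Among host cells, Atp2b1 and Atp2b4 were both higher in the digoxin mice. Host cells were pooled within each mouse, of which macrophages made up 2418 of 3033, 2456 of 3014, 2748 of 3344 and 2741 of 3257 cells. limma called 0 of 8 members and 0.0% of 14879 genes there, while 2 members had an unadjusted p under 0.05, beside 3.9% of all genes. In all non-malignant cells, 4 of 8 members tested were higher in both digoxin mice, beside 12.4% of all genes tested, and 0 were lower, beside 20.6%. Atp2b1 was at 389 and 390.0 CPM with vehicle against 474 and 455 with digoxin, and both digoxin mice were higher. Its difference was 0.25 (SE 0.08, limma p 0.0245, adjusted p 0.975), and it was 0.25 without vehicle mouse 2. Atp2b4 was at 33.8 and 26.8 CPM with vehicle against 41.1 and 46.1 with digoxin, again higher in both, with a difference of 0.52 (SE 0.15, limma p 0.0142, adjusted p 0.975), or 0.36 without vehicle mouse 2. The other 2 were Atp2a2 at a difference of 0.17 and Slc20a1 at 0.27. Both came nearest to 0 without vehicle mouse 2: Slc20a1 was at 44.2 and 32.0 CPM with vehicle against 45.3 and 45.6 with digoxin, and without that mouse its difference was 0.04 and that of Atp2a2 0.10. The median difference of the 8 members was 0.13, beside −0.02 over all genes tested. Markers of other cells moved with the groups: the neutrophil list summed to 164 and 52.8 CPM with vehicle against 1311 and 237 with digoxin, with 3 of 5 higher in both digoxin mice, the mast cell list to 4.05 and 13.6 CPM with vehicle against 63.8 and 65.7 with digoxin, with 3 of 4 higher, and the platelet list to 13.4 and 2.95 CPM with vehicle against 22.7 and 33.4 with digoxin, with 2 of 2 higher. Other lists held markers that were lower in both: the endothelial list summed to 114 and 141 CPM with vehicle against 111 and 106 with digoxin, with 3 of 5 lower in both digoxin mice, the dendritic list to 34.6 and 39.1 CPM with vehicle against 29.2 and 27.6 with digoxin, with 2 of 5 lower, and the fibroblast list to 544 and 276 CPM with vehicle against 289 and 391 with digoxin, with 3 of 5 lower. None of these markers was at 0. The median mitochondrial share in host cells was 4.98% and 6.24% with vehicle and 4.64% and 4.42% with digoxin, lower in both digoxin mice. Vehicle mouse 2 gave 152 Osteoclasts, the other mice 28, 47 and 36, and it gave all 30 Unknown cells. The osteoclast list in host cells summed to 349 and 2004 CPM with vehicle against 431 and 380 with digoxin. The part of these was not tested.

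Whether digoxin differences departed between malignant and host cells was tested by an interaction term, blocked by mouse. limma called 0 of 8 members and 0.0% of 14445 genes, and 2 members had an unadjusted p under 0.05, beside 3.99% of all genes. For Slc20a1 the malignant difference minus the host difference was −0.67 (SE 0.24, limma p 0.0333, adjusted p 0.970), and for Atp2b4 it was −0.53 (SE 0.15, limma p 0.0133, adjusted p 0.970). The Slc20a1 interaction turned on which vehicle mouse was kept. Without vehicle mouse 1 it was −1.01, and without vehicle mouse 2 it was −0.34. Without digoxin mouse 1 or 2 it was −0.86 or −0.49. The Atp2b4 interaction was −0.40 without vehicle mouse 2 and −0.66 without vehicle mouse 1, and limma did not call it in any of the 4 fits that left out a mouse.

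**Figure D3:**
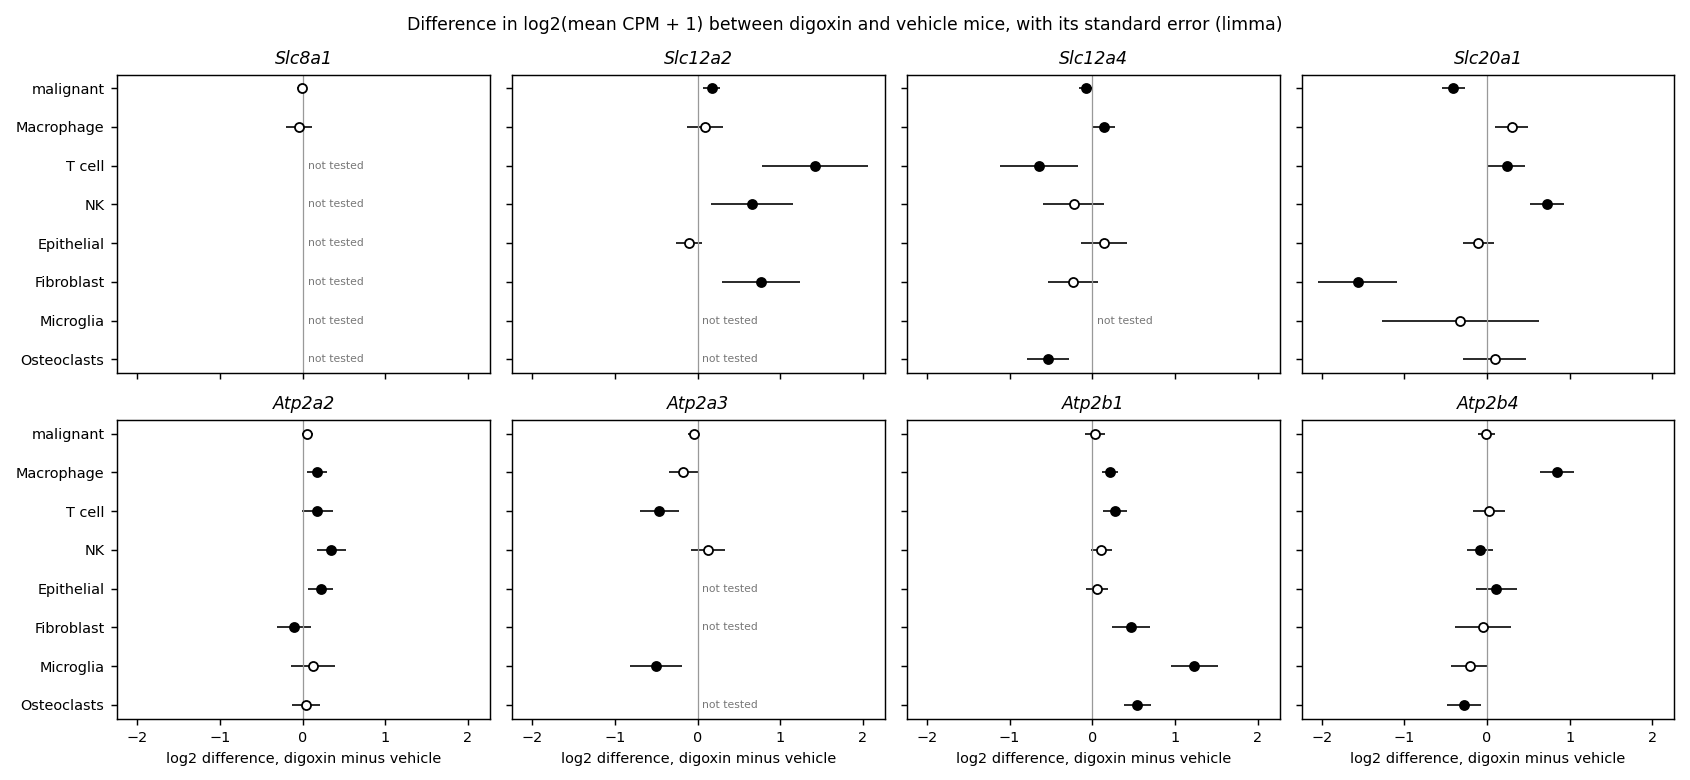
Difference between digoxin and vehicle in log2(mean CPM + 1) on the horizontal axis, with 1 panel for each gene and a row for each population, and bars of 1 standard error from limma. Filled points mark groups that did not overlap and open points groups that did. All Atp2b1 points lie above 0, from 0.04 in malignant cells to 1.23 in Microglia, and those of Slc20a1 run from −1.56 to 0.73.

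Both plasma membrane pumps were higher in the macrophages of both digoxin mice, Atp2b4 by the larger ratio and Atp2b1 from the higher level. limma called 0 of 8 members in macrophages and 0.0% of 13734 genes, and 1 member had an unadjusted p under 0.05, beside 4.04% of all genes. In macrophages, 4 of 8 members tested were higher in both digoxin mice, beside 13.6% of all genes tested, and 0 were lower, beside 17.3%. Atp2b4 was at 23.8 and 17.2 CPM with vehicle against 32.1 and 43.0 with digoxin, a ratio of means of 1.83 and a difference of 0.85 (SE 0.21, limma p 0.00533, adjusted p 1.00), and it was 0.62 without vehicle mouse 2. M1 cells, which held more Atp2b4, were 45.3% and 29.0% of macrophages with vehicle and 47.6% and 42.5% with digoxin. With the 3 sub-clusters given equal weight the difference was 0.65, and both digoxin mice were still higher. In macrophages Atp2b1 had means of 440.2 ± 0.717 (SD, n = 2) CPM for vehicle against 512 ± 19.9 (SD, n = 2) for digoxin, a difference of 0.22 (SE 0.10). Atp2a2 and Slc12a4 were also higher in both digoxin mice, by 0.17 and 0.14, each under 2 standard errors, and were 0.07 without vehicle mouse 2 and 0.07 without digoxin mouse 2. Platelet markers summed to 16.2 and 3.13 CPM with vehicle against 26.7 and 38.8 with digoxin in macrophages, with 1 of 2 higher in both digoxin mice and the mice in the same order as for Atp2b4. Neutrophil markers summed to 57.6 and 45.4 CPM with vehicle against 88.8 and 64.9 with digoxin, with 2 of 5 higher in both, and mast cell markers to 1.94 and 1.61 CPM with vehicle against 4.73 and 2.98 with digoxin, with 3 of 4 higher in both. The sum of the B cell list, at 5.17 and 4.99 CPM with vehicle against 4.68 and 3.89 with digoxin, was lower in both, though 0 of its 4 markers were. No marker of these 4 lists was at 0. The median mitochondrial share of UMIs was 5.20% and 6.44% with vehicle and 4.74% and 4.53% with digoxin, lower in both digoxin mice. The part of these in the macrophage differences was not tested.

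In M1 cells Atp2b4 and Atp2b1 were again higher in both digoxin mice. limma called 0 of 8 members in M1 and 0.0% of 12182 genes, and 2 members had an unadjusted p under 0.05, beside 7.73% of all genes. In M1 cells, 3 of 8 members tested were higher in both digoxin mice, beside 15.3% of all genes tested, and 2 were lower, beside 24.0%. The Atp2b4 means were 37.6 ± 3.51 (SD, n = 2) CPM for vehicle against 64.7 ± 14.0 (SD, n = 2) for digoxin, a difference of 0.75 (SE 0.17, limma p 0.00271, adjusted p 0.464). DESeq2 on the recovered UMIs called this 1 member at an adjusted p of 0.0336, beside 0.345% of all genes. In limma without digoxin mouse 1 the difference was 0.97. Without vehicle mouse 2 the difference was 0.66. The Atp2b1 means were 478 ± 1.64 (SD, n = 2) CPM for vehicle against 576 ± 1.51 (SD, n = 2) for digoxin, a difference of 0.27 (SE 0.09, limma p 0.0260, adjusted p 0.574), or 0.27 without vehicle mouse 2. The third higher member was Slc20a1 at 0.29, or 0.12 without vehicle mouse 2, and the lower ones were Slc8a1 at −0.05 and Atp2a3 at −0.26, or −0.02 without digoxin mouse 1 and −0.17 without digoxin mouse 2. Macrophage markers moved with the groups in M1: the list summed to 6358 and 7907 CPM with vehicle against 5537 and 5947 with digoxin, with 4 of 7 markers lower and 1 higher in both digoxin mice and none at 0. The 2 platelet markers in the table summed to 33.9 and 5.63 CPM with vehicle against 53.4 and 88.1 with digoxin, with 1 of 2 higher in both digoxin mice, and the mice stood in the same order as for Atp2b4. The neutrophil list summed to 64.5 and 61.8 CPM with vehicle against 120.3 and 89.1 with digoxin, with 3 of 5 higher and 1 lower in both. The microglia list, at 224 and 356 CPM with vehicle against 213 and 182 with digoxin, had 2 of 3 lower in both, and the endothelial list, at 26.0 and 22.0 CPM with vehicle against 22.5 and 18.5 with digoxin, 3 of 5. The sums of the epithelial, dendritic and B cell lists, at most 52.6 CPM, were lower in both digoxin mice, and that of the pericyte list, at most 10.8 CPM, was higher. None of these lists had a marker at 0. In M1 the median mitochondrial share was 4.23% and 4.63% with vehicle and 3.94% and 3.74% with digoxin, lower in both digoxin mice. What these add to the M1 differences was not tested.

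**Figure D4:**
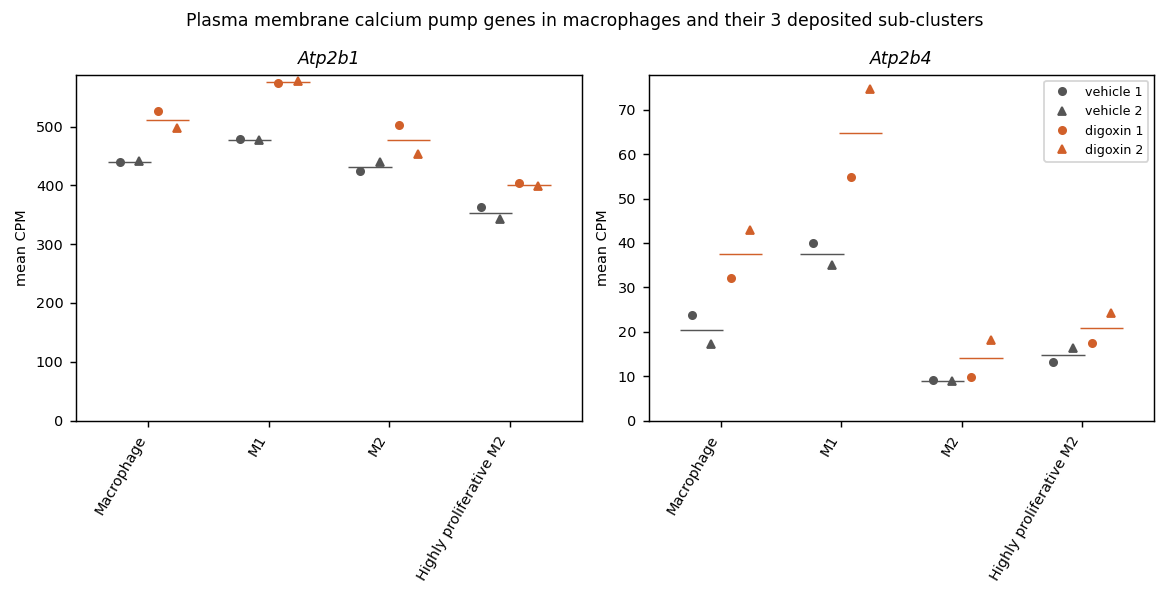
Mean CPM (vertical axis) of Atp2b1 and Atp2b4 in all macrophages and in each of their 3 sub-clusters (M1, M2, Highly proliferative M2), with 1 point for each mouse and a line at each group's mean. Both genes lie higher in both digoxin mice in each set of cells, and the Atp2b4 points in M1 exceed those in M2 in every mouse.

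In M2 cells limma called 0 of 8 members and 0.0% of 12545 genes, with no member at an unadjusted p under 0.05, beside 2.28% of all genes. In M2 cells, 4 of 8 members tested were higher in both digoxin mice, beside 15.0% of all genes tested, and 0 were lower, beside 11.7%. These were Atp2b1 at 0.14, Atp2b4 at 0.52, Atp2a2 at 0.23 and Slc12a4 at 0.19. Without digoxin mouse 2 the Atp2b4 difference was 0.11 and that of Slc12a4 0.10, while Atp2a2 was 0.11 without vehicle mouse 2 and Atp2b1 0.07 without digoxin mouse 1. In M2 the median mitochondrial share was 6.66% and 7.46% with vehicle and 5.64% and 5.22% with digoxin, lower in both digoxin mice. Neutrophil markers summed to 51.7 and 41.6 CPM with vehicle against 65.3 and 50.3 with digoxin, with 3 of 5 higher in both digoxin mice and none at 0, and the sums of the mast cell and endothelial lists, at most 9.34 CPM, were higher in both. The part of these was not tested. In Highly proliferative M2 cells the call count was likewise 0 of 8 members, beside 0.0% of 11459 genes. No member had an unadjusted p under 0.05 there, beside 3.94% of all genes. In these cells, 4 of 8 members tested were higher in both digoxin mice, beside 17.4% of all genes tested, and 1 was lower, beside 12.6%. The same 4 members were the higher ones, Atp2b1 by 0.18 and Atp2b4 by 0.45 among them, and Atp2a3 was the lower one at −0.52. Without digoxin mouse 2 the Atp2b4 and Atp2a3 differences were 0.22 and −0.28. Median UMIs per cell were 27030.0 and 25066 with vehicle and 28898 and 27743 with digoxin, higher in both digoxin mice. The median mitochondrial share was 5.14% and 5.82% with vehicle and 4.78% and 4.54% with digoxin, mast cell markers summed to 1.62 and 0.40 CPM with vehicle against 27.9 and 2.98 with digoxin with 3 of 4 higher in both digoxin mice, and the cycling list to 1589 and 1539 CPM with vehicle against 1854 and 1669.6 with digoxin with 2 of 2 higher. The fibroblast list, at 72.8 and 72.2 CPM with vehicle against 53.5 and 79.0 with digoxin, had 3 of 5 lower in both, and the sums of the dendritic and platelet lists, at most 7.27 CPM, were higher. None of these markers was at 0, and their part was not tested. The sub-clusters are parts of the macrophages of the same mice and are not further replicates.

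Atp2b1 was higher in both digoxin mice in 5 of the 7 host types, namely macrophages, T cells, Fibroblasts, Microglia and Osteoclasts, and 1.33% of the 5029 genes tested in all 7 types reached at least 5. The other members tested in all 7 types were Atp2a2, higher in 4, and Slc20a1 and Atp2b4, higher in 2 each. The cutoff of 5 equals the count of Atp2b1 itself, and the shares of all genes at 4 or 2 types were not counted. These types come from the same 4 mice, so the count does not add replicates. In Microglia, limma called 0 of 5 members and 0.0% of 5818 genes, and 1 member had an unadjusted p under 0.05, beside 4.78% of all genes. In Microglia, 1 of 5 members tested was higher in both digoxin mice, beside 16.7% of all genes tested, and 1 was lower, beside 16.2%. Atp2b1, the higher one, was at 44.1 ± 8.90 (SD, n = 2) CPM for vehicle against 104 ± 0.187 (SD, n = 2) for digoxin, a ratio of 2.35 and a difference of 1.23 (SE 0.28, limma p 0.000650, adjusted p 0.344). These levels rest on 31 and 19 UMIs with vehicle and 93 and 41 with digoxin. In limma without vehicle mouse 2 the difference was 1.43. With all 4 mice in edgeR the adjusted p was 1.00. At least 3 of the 7 macrophage markers were found in 38.2% and 36.8% of the cells with vehicle and 43.1% and 54.8% with digoxin. Leaving those cells out gave a difference of 1.36. The macrophage list summed to 975 and 869 CPM with vehicle against 1050.1 and 941 with digoxin, with 3 of 7 markers higher in both digoxin mice and none at 0. The plasmacytoid dendritic list, carried by these cells, summed to 7704 and 8623 CPM with vehicle against 7758 and 7715 with digoxin. Of its markers, 2 of 4 were lower in both digoxin mice. The cycling list summed to 11.9 and 11.3 CPM with vehicle against 16.4 and 27.2 with digoxin, with 1 of 2 higher in both, the mast cell list, with Mcpt4 and Ms4a2 at 0, to 2.21 and 4.16 CPM with vehicle against 7.38 and 6.01 with digoxin, higher in both, and the platelet list to 5.00 and 2.40 CPM with vehicle against 0.745 and 0 with digoxin, lower in both. Their part was not tested. The Atp2b4 share of the pair in Microglia was 87.1% and 86.2% with vehicle against 74.3% and 65.7% with digoxin, lower in both digoxin mice. Atp2a3 was the lower member, at a difference of −0.50 (SE 0.32), or −0.16 without digoxin mouse 2.

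Osteoclasts held more Atp2b1 and less Slc12a4 and Atp2b4 in both digoxin mice. In these cells, which carried Acp5 at 11381 and Ctsk at 9188 CPM, limma called 0 of 5 members and 0.0128% of 7803 genes. A single member had an unadjusted p under 0.05, beside 6.38% of all genes, and it was Atp2b1. In Osteoclasts, 1 of 5 members tested was higher in both digoxin mice, beside 21.6% of all genes tested, and 2 were lower, beside 15.8%. Atp2b1 was at 105 and 90.3 CPM with vehicle against 132 and 153 with digoxin, a difference of 0.54 (SE 0.17, limma p 0.00876, adjusted p 0.781), and it was 0.44 without vehicle mouse 2. Slc12a4 at 43.3 and 30.7 CPM with vehicle against 26.1 and 23.6 with digoxin and Atp2b4 at 50.8 and 58.9 CPM with vehicle against 48.8 and 41.2 with digoxin were lower in both, and their differences went from −0.54 to −0.30 without vehicle mouse 1 and from −0.28 to −0.18 without vehicle mouse 2. The share of Atp2b4 in the PMCA pair was 32.6% and 39.5% with vehicle against 26.9% and 21.2% with digoxin. Vehicle mouse 2 gave 152 of these cells and the other mice 28, 47 and 36. At least 3 of the 7 macrophage markers were found in 57.1% and 58.6% of the cells with vehicle and 76.6% and 63.9% with digoxin, higher in both digoxin mice. The osteoclast list summed to 26104 and 37231 CPM with vehicle against 21977 and 24471 with digoxin, with 2 of 5 markers lower in both and none at 0, and the median mitochondrial share was 9.48% and 10.8% with vehicle and 7.86% and 7.64% with digoxin. The sum of the microglia list, at 523 and 680.0 CPM with vehicle against 409.6 and 447 with digoxin, was lower in both, with 1 of 3 markers lower in both. So were the sums of the T cell list, with Cd4 and Cd8a at 0, and the NK list, at most 9.10 CPM. Median UMIs per cell were 24700.5 and 22907 with vehicle and 28744 and 27544 with digoxin, higher in both digoxin mice. The part of these in the Osteoclast differences was not tested.

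T cells held more Slc12a2, which brings chloride in, and less Slc12a4, which lets it out, in both digoxin mice, from few UMIs. limma called 0 of 7 members in T cells and 0.0% of 8930 genes, and no member had an unadjusted p under 0.05, beside 4.28% of all genes. In T cells, 4 of 7 members tested were higher in both digoxin mice, beside 14.3% of all genes tested, and 2 were lower, beside 19.0%. Slc12a2 was at 4.25 ± 4.07 (SD, n = 2) CPM for vehicle against 10.9 ± 2.92 (SD, n = 2) for digoxin, and the groups did not overlap. It differed by 1.42 (SE 0.64, limma p 0.0518), by 0.53 without vehicle mouse 2 and by 2.31 without vehicle mouse 1. These levels rest on 17 and 3 UMIs with vehicle and 10 and 13 with digoxin. Atp2b1 differed by 0.27 (SE 0.14), or 0.18 without digoxin mouse 1. Atp2a2 at 0.18 and Slc20a1 at 0.24 were the other higher members, or 0.07 without vehicle mouse 1 and 0.16 without vehicle mouse 2. Atp2a3 at 55.7 and 43.4 CPM with vehicle against 38.2 and 32.7 with digoxin and Slc12a4 at 9.55 and 8.05 CPM with vehicle against 6.47 and 4.22 with digoxin were the lower ones, at differences of −0.46 and −0.65, or −0.29 without vehicle mouse 1 and −0.39 without digoxin mouse 2. With Slc12a2 higher and Slc12a4 lower, the Slc12a4 share was 57.3% and 85.5% with vehicle against 42.2% and 24.5% with digoxin. Among T cells the T cell list summed to 3520 and 2995 CPM with vehicle against 3182 and 2830 with digoxin, with 3 of 6 markers lower in both digoxin mice. The cycling list summed to 543 and 455 CPM with vehicle against 302 and 367 with digoxin, lower in both digoxin mice. The neutrophil list summed to 6.50 and 18.1 CPM with vehicle against 39.1 and 127 with digoxin, with 3 of 5 of its markers higher in both digoxin mice and none at 0. The macrophage list, at 557 and 1669 CPM with vehicle against 747 and 778 with digoxin, overlapped between the groups, and the microglia list, at 48.7 and 91.7 CPM with vehicle against 53.1 and 47.3 with digoxin, had 2 of 3 lower in both. The sums of the epithelial and B cell lists, at most 64.6 CPM, were lower in both digoxin mice, that of the platelet list, at most 2.21 CPM, was higher, and median UMIs per cell were 8008 and 8232 with vehicle and 7650.0 and 7244 with digoxin, lower in both. The deposited subsets of T cells also differed: Treg cells made up 35 of 183, 65 of 110, 40 of 155 and 35 of 131 T cells of vehicle mice 1 and 2 and digoxin mice 1 and 2, and those of vehicle mouse 2 held Slc12a2 at 0.244 CPM from 1 UMI. Their part in the T cell differences was not tested.

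In NK cells Slc20a1 was higher in both digoxin mice, and in fibroblasts it was lower in both. limma called 0 of 7 members in NK cells and 0.0765% of 9147 genes, and 1 member had an unadjusted p under 0.05, beside 6.28% of all genes. In NK cells, 3 of 7 members tested were higher in both digoxin mice, beside 19.1% of all genes tested, and 1 was lower, beside 16.9%. Slc20a1 was at 38.7 and 32.2 CPM with vehicle against 53.2 and 65.5 with digoxin, a difference of 0.73 (SE 0.20, limma p 0.00336, adjusted p 0.608), and it was 0.60 without vehicle mouse 2. The other higher members were Slc12a2 and Atp2a2, at 0.66 and 0.35, and Atp2b4 was lower in both at a difference of −0.09. Slc12a2 rested on 8 and 4 UMIs with vehicle and 18 and 13 with digoxin, and its difference was 0.34 without digoxin mouse 1. Atp2a2 was 0.23 without vehicle mouse 2 and Atp2b4 −0.05 without digoxin mouse 1. At least 3 of the 7 macrophage markers were found in 17.4% and 21.7% of the cells with vehicle and 22.7% and 30.5% with digoxin, higher in both digoxin mice. In NK cells the NK list summed to 4359 and 3748 CPM with vehicle against 4179 and 3730 with digoxin, with 2 of 5 markers lower in both. The macrophage list summed to 636 and 563 CPM with vehicle against 631 and 683 with digoxin, with 3 of 7 markers higher in both. The neutrophil list summed to 3.08 and 0.489 CPM with vehicle against 15.7 and 5.91 with digoxin, with 3 of 5 higher. None of these markers was at 0. The microglia list, at 24.0 and 21.7 CPM with vehicle against 29.3 and 43.2 with digoxin, had 2 of 3 higher in both, the sums of the dendritic list, with Clec9a and Xcr1 at 0, and the platelet list, at most 8.51 CPM, were higher, and that of the skeletal muscle list, with Myod1 and Pax7 at 0, was lower, at most 10.4 CPM. The share marked as doublets was 3.47% and 1.45% with vehicle and 5.33% and 4.26% with digoxin, higher in both digoxin mice, and none of these was tested for its part. In fibroblasts Slc20a1 was at 40.2 and 109.9 CPM with vehicle against 28.8 and 16.6 with digoxin. limma called 0 of 6 members and 0.0% of 9292 genes in fibroblasts, and 1 member had an unadjusted p under 0.05, beside 2.97% of all genes. In fibroblasts, 2 of 6 members tested were higher in both digoxin mice, beside 10.1% of all genes tested, and 2 were lower, beside 19.4%. The Slc20a1 difference was −1.56 (SE 0.48, limma p 0.0109, adjusted p 0.999), from 109 and 79 UMIs with vehicle and 50 and 24 with digoxin. It was −2.28 without vehicle mouse 1 and −0.85 without vehicle mouse 2. The fibroblasts of vehicle mouse 2 numbered 31 and had the cycling markers at a sum of 23.7 CPM, against 164 to 281 in the other mice. The neutrophil list summed to 2.87 and 0 CPM with vehicle against 21.6 and 4.93 with digoxin in fibroblasts, with 3 of 5 higher in both digoxin mice and Cxcr2 at 0. The mast cell list summed to 0 and 0 CPM with vehicle against 58.4 and 0.907 with digoxin. The plasmacytoid dendritic list summed to 548 and 547 CPM with vehicle against 531 and 390.3 with digoxin. That sum was lower in both, though 0 of its 4 markers were. The fibroblast list itself summed to 17194 and 16872 CPM with vehicle against 16054 and 18623 with digoxin, with 2 of 5 lower in both. The median mitochondrial share in fibroblasts was 3.80% and 3.99% with vehicle and 3.75% and 3.35% with digoxin. The part of these in the difference was not tested. Slc12a2 and Atp2b1 were the higher members in fibroblasts, by 0.77 (SE 0.47) and 0.47 (SE 0.23). Slc12a2 rested there on 23 and 6 UMIs with vehicle and 19 and 12 with digoxin. Over 14 alternatives its difference ran from 0.29 to 1.33, and that of Atp2b1 from 0.34 to 0.60. Atp2a2 was the other lower member in fibroblasts at −0.10, or −0.03 without vehicle mouse 1. Its sign turned in edgeR and DESeq2, at 0.000666 and 0.00375.

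The Epithelial cells, highest in Slc12a2 and Slc20a1, overlapped between the groups for both genes. limma called 0 of 6 members in these cells and 0.467% of 10272 genes, and no member had an unadjusted p under 0.05, beside 5.77% of all genes. In Epithelial cells, 2 of 6 members tested were higher in both digoxin mice, beside 17.8% of all genes tested, and 0 were lower, beside 16.3%. Atp2a2 was at 97.5 and 102 CPM with vehicle against 116 and 117 with digoxin, a difference of 0.22. Atp2b4 was at 25.9 and 25.7 CPM with vehicle against 28.6 and 27.3 with digoxin, a difference of 0.11. Over 14 alternatives the differences ran from 0.19 to 0.34 for Atp2a2 and from 0.017 to 0.20 for Atp2b4. Slc12a2 and Slc20a1 had differences of −0.10 (SE 0.16) and −0.11 (SE 0.19). Mast cell markers summed to 59.4 and 148 CPM with vehicle against 2330.0 and 2345 with digoxin in these cells, with 3 of 4 higher in both digoxin mice and none at 0, and 5 of 7 macrophage markers were higher in both, with sums of 203 and 373 CPM with vehicle against 471 and 413 with digoxin. Pericyte and smooth muscle markers summed to 885 and 650.2 CPM with vehicle against 862 and 1042 with digoxin, with 3 of 4 higher in both, and platelet markers to 5.43 and 7.03 CPM with vehicle against 21.8 and 10.9 with digoxin, with 2 of 2 higher. The sum of the microglia list, at 48.9 and 46.2 CPM with vehicle against 60.6 and 67.2 with digoxin, was also higher in both, with 1 of 3 markers higher. The median mitochondrial share was 5.16% and 5.00% with vehicle and 4.77% and 4.56% with digoxin, lower in both digoxin mice. The part of these was not tested. Over all 12 populations and the interaction, edgeR called 0 members, beside 0.0% to 0.186% of all genes, and DESeq2 called 1, beside 0.0% to 0.345%.

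A list of 60 other genes of ion transport and calcium handling, among them kinases and calcium channels, gave no call in limma in any population, in either direction. In malignant cells 51 of the 60 were tested, 9 higher and 12 lower in both digoxin mice, beside 12.8% and 16.5% of all genes, and 4 had an unadjusted p under 0.05, beside 3.41%, with a median difference of −0.01. In macrophages 39 were tested, 10 higher and 4 lower in both digoxin mice, beside 13.6% and 17.3% of all genes, and 1 had an unadjusted p under 0.05, beside 4.04%, with a median difference of 0.09 beside −0.01 over all genes.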

How the data were processed

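Cells were taken from 4 libraries, 2 of vehicle and 2 of digoxin mice, and mice were the replicates. The deposited tables hold the natural log of 1 plus UMIs per 10000 of a cell, as tested on the values, and the deposited cell tables give the UMI count of each cell and its type. Cell Ranger 3.0.2, Seurat 3.0.2 and mm10 are named, per the submitters' processing notes. Every value above 0 gave back a whole UMI count within 0.01, and the recovered counts summed to the deposited total in all 18963 malignant and 12648 non-malignant cells. How malignant cells were told from others is not given in the sources used here. The number of value columns of no sample was 0.

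Mean CPM per mouse and population was tested as log2(mean CPM + 1), where the added 1 understates changes of low genes. The test was limma 3.58.1 with an empirical Bayes trend, over all genes passing edgeR's filterByExpr, with Benjamini-Hochberg adjustment at 0.05. limma was the main test because the files hold normalized values. edgeR's quasi-likelihood test and DESeq2 on recovered UMIs were alternatives, with another pseudocount, no filter, a replicate block, each mouse left out, and cells of doubtful quality or type left out. The members are named wherever they have UMIs. Other genes of the pathway list are named where called or, with none called, for the highest level, which is not reported here, and likeness takes the 3 genes with the highest r. Members and lists were chosen with earlier results of these data known. Scrublet (scanpy 1.11.5, expected rate 0.06) was run per mouse on malignant and host cells together. It marked 1381 of 31611 cells (4.37%), and these were kept. They were 5.49% to 8.50% of the malignant cells of a mouse and 0.332% to 0.956% of the others. The fits were tested on simulated data. The limma p-values rest on the spread between 2 mice a group, with the variance of each gene drawn towards a trend over all genes. R 4.3.3, edgeR 4.0.16 and DESeq2 1.42.0 were used.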

Additional observations from a re-analysis of the deposited data

Results flagged for a closer look

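Among members tested in the populations compared, 4 had both digoxin mice above both vehicle mice in one population and below them in another. The differences are log2(mean CPM + 1) in digoxin minus vehicle, none passed limma's adjusted threshold, and the difference between populations was tested only for malignant against all host cells. Slc20a1 was lower in malignant cells (−0.41) and Fibroblasts (−1.56) and higher in NK cells (0.73) and T cells (0.24). Slc12a4 was lower in malignant cells (−0.078), T cells (−0.65) and Osteoclasts (−0.54) and higher in macrophages (0.14). Atp2a2 was higher in macrophages (0.17), T cells (0.18), NK cells (0.35) and Epithelial cells (0.22) and lower in Fibroblasts (−0.10). Atp2b4 was higher in macrophages (0.85) and Epithelial cells (0.11) and lower in NK cells (−0.088) and Osteoclasts (−0.28). With 2 mice a group, the share of all genes with both digoxin mice on one side was 10.1% to 21.6% in each direction in these populations. The share of all genes on opposite sides in different populations was not counted, so the 4 members cannot be called unusual.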

How the results depend on the processing

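Across 172 alternatives to the member counts of the 13 comparisons, 167 gave 0 members, as did the main fits. DESeq2 called 1 member in M1. The remaining alternatives with a call each left out 1 mouse. They concerned Slc20a1 in Fibroblasts and in the interaction without vehicle mouse 1. They also concerned Atp2b1 in Microglia without vehicle mouse 2 and Atp2b4 in M1 without digoxin mouse 1. In these fits genes outside the members were called too, though the main limma fits called none there. The calls are thus not particular to the members. With 1 mouse left in a group, that mouse is assumed to vary like those of the other group. Of 613 alternatives to the 46 log2 differences whose groups did not overlap, 611 kept the direction, and leaving out 1 mouse moved 31 of the 46 by over 1.5 times. The 2 that reversed were Atp2a2 in Fibroblasts under edgeR, at 0.000666, and under DESeq2, at 0.00375, and the cause was not tested. Of 231 alternatives to the paralog shares, 227 moved by less than 1 SD over mice. The others are given as means over mice. Atp2a3 in malignant cells was 0.142% without cells marked as doublets, beside 0.209% in the main values. From CPM of summed UMIs, Atp2b4 in T cells was 17.1% beside 19.5%. From the same sums, Slc12a4 was 31.7% beside 35.0% in malignant cells and 24.3% beside 20.8% in Epithelial cells.

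The replicate numbers do not pair mice by any label, and the deviations of the mice numbered 1 correlated at −0.363 for malignant and at 0.0124 for host cells. With the replicate block, 0 members were called in each of the 12 populations. With the numbers crossed in malignant cells, chosen after seeing the data, 0 members and 0 of all genes were called. Leaving out cells with macrophage markers and weighting the macrophage sub-clusters equally were also chosen after seeing the data, and called 0 members. Removing cells with markers of any other type was not run for malignant cells or the interaction. Slc8a1 and Atp2a3 in malignant cells rest on 46 to 206 UMIs a mouse, and the host types other than macrophages on 28 to 183 cells a mouse. Each group holds 2 mice.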
